A study of Tuber melanosporum with 9 samples.

Results

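The genes described here are the 134 of 7496 genes in the deposited RNA table that lie on scaffolds 15, 28, 33, 51, 103, 148 and 180 of the black truffle Tuber melanosporum. The scaffolds were chosen because bisulfite reads lay deeper on each of them, averaged over its length, in all 3 mycelium libraries than in the fruitbody library (FB). That depth chose the genes, so it is given below as a description, and the RNA was not used to choose them. Scaffold 15 carries 45 of the genes, scaffold 33 carries 34, scaffold 103 carries 20, scaffold 148 carries 11, scaffold 51 carries 10, and scaffolds 28 and 180 carry 7 each.

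Bisulfite sequencing for DNA methylation gave 5 libraries and RNA sequencing 4, with 1 library per condition and assay, so that no difference between conditions has a replicate check. The treated mycelium was a liquid culture of the Tmel28 isolate (Mel28) in synthetic medium, in the dark at 23 °C, that received 5-azacytidine (5-aza, an inhibitor of DNA methylation) at 100 µM every 5 days for 45 days, the last time 24 hours before harvest. The untreated mycelium was the same kind of culture with water in place of 5-aza. The free-living mycelium (FLM) was Mel28 grown on malt agar, FB was a mature fruitbody from the field whose strain is not stated, and the ectomycorrhizal root tips (ECM) were hazel roots colonized by the fungus, which also hold plant cells and were measured for methylation only. DNA of FLM, ECM and FB was purified with a kit, and that of the liquid cultures with phenol and chloroform. Stage, strain and growth cannot be told apart between FB and the mycelia, and the 3 comparisons with FB share 1 FB library.

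The vegetative mycelium of truffles is haploid, and most of a fruitbody is haploid maternal tissue around a small mass of ascospores. How many reads a stretch of DNA receives in a sequencing library depends on how many copies of it each genome holds and on how well its sequence is recovered and aligned. In many fungi, additional copies of whole chromosomes or large segments arise in laboratory culture and raise the RNA of many of the genes they carry, though regulation of single genes can mask or exceed such a dosage effect. The gene identifiers have no names or functions in the annotation at hand, so the genes are described by identifier, position and level, and tissue identity could not be checked against marker genes.

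The 7 scaffolds span 4651014 bp, or 3.72% of the 124945702 bp of the assembly. They are poor in genes, with 28.8 genes per Mb against 61.2 on all other scaffolds, and repeats cover 64.3% of them against 56.3% elsewhere. Scaffold 28 is the sparsest, with 7.10 genes per Mb and 73.1% of repeats, and scaffold 103 the densest, with 50.8 genes per Mb. Positions listed as a cytosine of either strand in any bisulfite library make up 43.9% of the 7 scaffolds and 43.3% of the others. This approximates the GC content but misses positions without a read.

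Bisulfite depth was divided by the genome mean of each library, which was 8.64 reads per listed cytosine in treated mycelium, 7.35 in untreated mycelium, 19.9 in FLM, 1.35 in ECM and 20.1 in FB. On this scale the 7 scaffolds lay between 1.72 and 1.81 in treated mycelium, between 1.71 and 1.83 in untreated mycelium, between 1.60 and 1.79 in FLM, between 0.969 and 1.01 in ECM and between 0.956 and 1.12 in FB. As a whole, they had 1.72 times the FB depth in treated mycelium, 1.72 times in untreated mycelium, 1.64 times in FLM and 0.965 times in ECM. The 3 mycelia were thus alike. Only cytosines with a read are listed, so at 1.35 reads per listed cytosine this measure can vary little in ECM. Over all cytosines listed in any library, ECM lay between 0.897 (scaffold 180) and 1.09 (scaffold 51). By that measure the 7 scaffolds as a whole had 0.972 times the FB depth in ECM. ECM thus lay with FB, as far as its low depth shows.

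In the depth that chose them, the 7 scaffolds stood apart from the others, which is a description and no support for the choice. Among the 259 scaffolds of at least 100 kb, the smallest of the 3 mycelium to FB ratios was 1.53 on scaffold 51, the lowest of the 7, and 1.09 on the highest of the others, scaffold 217. In 462 windows of 10 kb along the 7 scaffolds, the median ratio to FB was 1.73 in treated mycelium, 1.71 in untreated mycelium, 1.62 in FLM and 0.968 in ECM. The middle 90% of windows lay between 1.34 and 2.65 in treated mycelium, between 1.33 and 2.71 in untreated mycelium and between 1.49 and 2.07 in FLM, the mycelium library with most reads. The lowest window had 0.976 times the FB depth in treated mycelium (scaffold 28), 0.924 times in untreated mycelium (scaffold 51) and 1.21 times in FLM, so single windows of the liquid cultures were no deeper than FB. Per the study, bisulfite reads of the liquid cultures were also shorter than those of FLM and FB. Whether read length or DNA extraction has a part in these windows was not tested. A window of scaffold 180 was nearly empty in FB, with a depth of 1.12 in treated mycelium, 1.16 in untreated mycelium, 1.31 in FLM, 0.271 in ECM and 0.109 in FB relative to the genome mean.

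The genes themselves shared the depth of their scaffolds. Of the 134 genes, 133 have a position in the RefSeq annotation, and GSTUMT00004744001 on scaffold 15, which had no RNA read in any library, has none. The depth over the gene span relative to FB had a median of 1.67 in treated mycelium (range 1.28 to 2.47), 1.81 in untreated mycelium (1.17 to 2.84), 1.61 in FLM (between 1.44 and 1.93) and 1.01 in ECM (between 0.439 and 1.90). The genes of other scaffolds had medians of 0.899, 0.964, 0.938 and 1.03 in the same 4 libraries. All 133 genes lay above 1 in each mycelium.

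**Figure D1:**
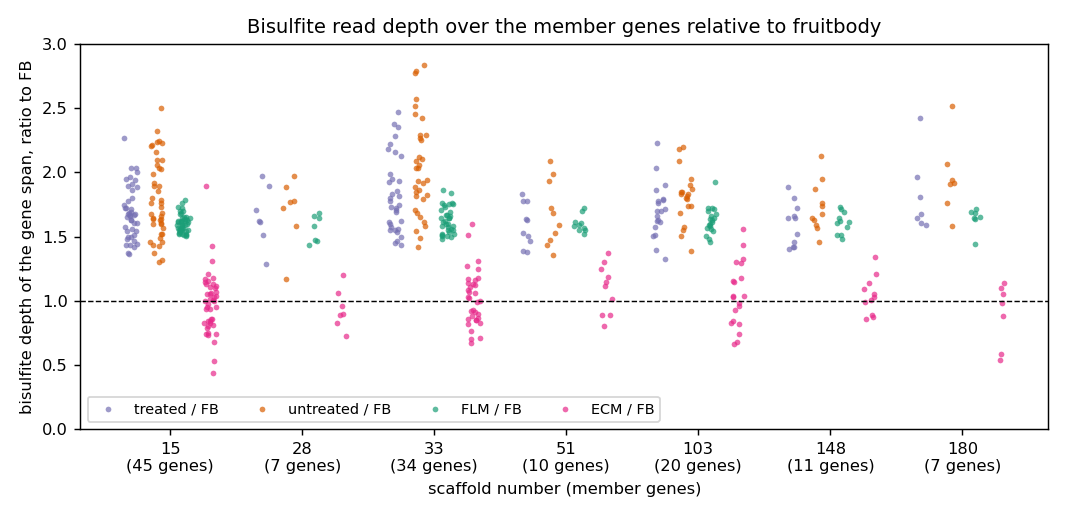
Bisulfite read depth over each of the 133 located genes, relative to FB after division by the genome mean of each library (y axis, linear), by scaffold (x axis), with 1 point per gene and 1 colour per library. Points of treated and untreated mycelium and of FLM lie above 1 on all 7 scaffolds, most tightly in FLM (1.44 to 1.93), while ECM points scatter around 1.

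RNA levels are given as CPM, the reads of a gene divided by all gene reads of the library and multiplied by 1000000. Gene reads numbered 21802480 in treated mycelium, 22446163 in untreated mycelium, 23816308 in FLM and 23397373 in FB. Ratios are log2 ratios of CPM with 0.5 reads added, for genes with at least 20 reads in 1 of the 2 libraries compared. A gene is counted as higher or lower past a 2-fold difference, which is a rule of size and not a test. In whole tissue, fewer cells of a type and less RNA per cell cannot be told apart.

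Reads on the 134 genes made up 6.08% of the gene reads in treated mycelium, 4.28% in untreated mycelium, 1.92% in FLM and 2.11% in FB, whereas these genes are 1.79% of all genes. A pair of genes carried much of that difference. Without GSTUMT00006593001 and GSTUMT00004791001, singled out after their values were seen, the shares were 2.46% in treated mycelium, 2.52% in untreated mycelium, 1.91% in FLM and 1.03% in FB. The median level of the 134 genes was 115 CPM in treated mycelium, 104 CPM in untreated mycelium, 69.2 CPM in FLM and 43.4 CPM in FB.

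Most of the genes had more RNA in mycelium than in FB. In treated mycelium, 86 of 130 genes were at least 2-fold higher than in FB, against 35% of all genes tested, and 11 were at least 2-fold lower, against 15.7%. In untreated mycelium, 85 of 130 were higher, against 34.1% of all genes, and 12 were lower, against 17.1%. In FLM, 48 of 126 were higher, against 22.6% of all genes, and 22 were lower, against 34.7%. The share of higher genes thus exceeded the background in each mycelium, and the share of lower genes was below it.

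The median log2 ratio to FB was 1.56 in treated mycelium, where the median of all genes was 0.47. It was 1.63 in untreated mycelium, with 0.41 for all genes, and 0.51 in FLM, with -0.42 for all genes. Relative to all genes, the median of the genes on the 7 scaffolds was therefore higher by 1.10 in treated mycelium, 1.22 in untreated mycelium and 0.93 in FLM on the log2 scale. Size factors from the median of ratios in place of read totals bring the median of all genes to -0.02, 0.00 and 0.00 in the same order. The differences stay at 1.10, 1.22 and 0.93 by construction, since such scaling moves all genes almost equally. The log2 of the median depth ratio over the 133 located genes was 0.74 in treated mycelium, 0.86 in untreated mycelium and 0.69 in FLM. These depths are relative to the genome mean and not to other genes, so their baseline differs from that of the RNA differences. Genes of other scaffolds had median depth ratios below 1, of 0.899, 0.964 and 0.938 in the same order.

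**Figure D2:**
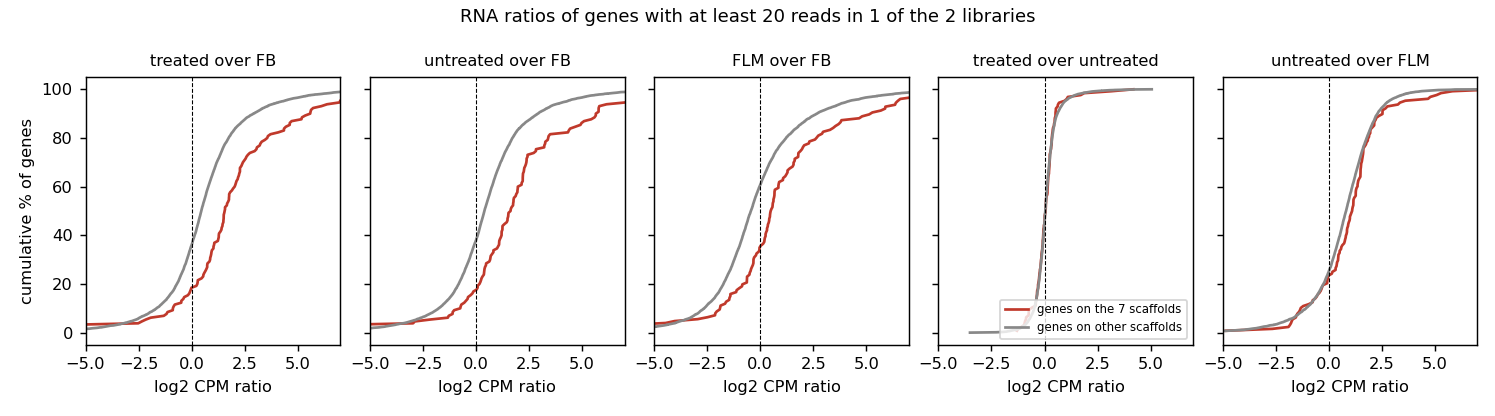
Cumulative share of genes (y axis, percent) by log2 CPM ratio (x axis, shown from -5 to 7) for genes on the 7 scaffolds (red) and on all other scaffolds (grey), 1 panel per comparison. The red curve lies to the right of the grey one through the middle of each comparison with FB (median 1.56 against 0.45 for treated mycelium), and both nearly coincide for treated over untreated mycelium.

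Within the 7 scaffolds the RNA ratio of a gene was at most weakly related to its own depth ratio. Across genes, the rank correlation of depth ratio and RNA ratio to FB was -0.16 in treated mycelium (130 genes), -0.17 in untreated mycelium (130 genes) and 0.08 in FLM (126 genes). These are descriptions across genes of the same libraries, and genes are not independent replicates. The scaffolds were chosen for raised depth, so depth ratios varied little among their genes. Their quartiles were 1.54 and 1.84 in treated mycelium, 1.61 and 2.04 in untreated mycelium, and 1.55 and 1.67 in FLM. Over so narrow a range, these correlations say little about how RNA relates to depth. The spread of RNA ratios was far wider than that of depth, with quartiles of 0.66 and 3.03 in treated mycelium, of 0.40 and 2.83 in untreated mycelium and of -0.45 and 1.95 in FLM on the log2 scale.

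The scaffolds differed among themselves. Scaffold 148 had a median log2 ratio to FB of 2.97 in treated mycelium, 3.21 in untreated mycelium and 1.89 in FLM, and 10 of its 11 genes were at least 2-fold higher in treated and in untreated mycelium. Scaffold 33 had medians of 2.04, 1.97 and 1.28 in the same order, and 26 of its 34 genes were at least 2-fold higher in treated and in untreated mycelium. Among the 206 scaffolds with at least 7 genes, scaffold 148 ranked 5 in treated mycelium, 5 in untreated mycelium and 7 in FLM, and scaffold 33 ranked 10, 13 and 14. Both stood near the top of the genome.

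Scaffold 180 had a median of 1.61 in treated mycelium, 2.20 in untreated mycelium and 2.34 in FLM, over 6 genes with enough reads. Scaffold 103 had medians of 1.61, 1.82 and 0.58, and scaffold 51 of 1.83, 1.64 and 0.53, in treated mycelium, untreated mycelium and FLM. Scaffold 15, the longest, had 1.19 in treated mycelium, 1.17 in untreated mycelium and 0.23 in FLM, and ranked 26, 27 and 41. Of its 42 genes with enough reads, 31 were above 0 in treated and in untreated mycelium. Among all genes, 64.3% were above 0 in treated mycelium and 62.5% in untreated mycelium.

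Scaffold 28 did not stand out in RNA. Its median was 0.47 in treated mycelium, 0.40 in untreated mycelium and -0.04 in FLM, at ranks 104, 100 and 61 of 206. In the liquid cultures this was close to the medians of all genes given above, and in FLM it was above that median. It has 7 genes, and 2 of them were at least 2-fold higher and 2 at least 2-fold lower than FB in each liquid culture. Its depth was 1.69 times that of FB in treated mycelium, 1.69 times in untreated mycelium and 1.62 times in FLM, within the range of the other 6.

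**Figure D3:**
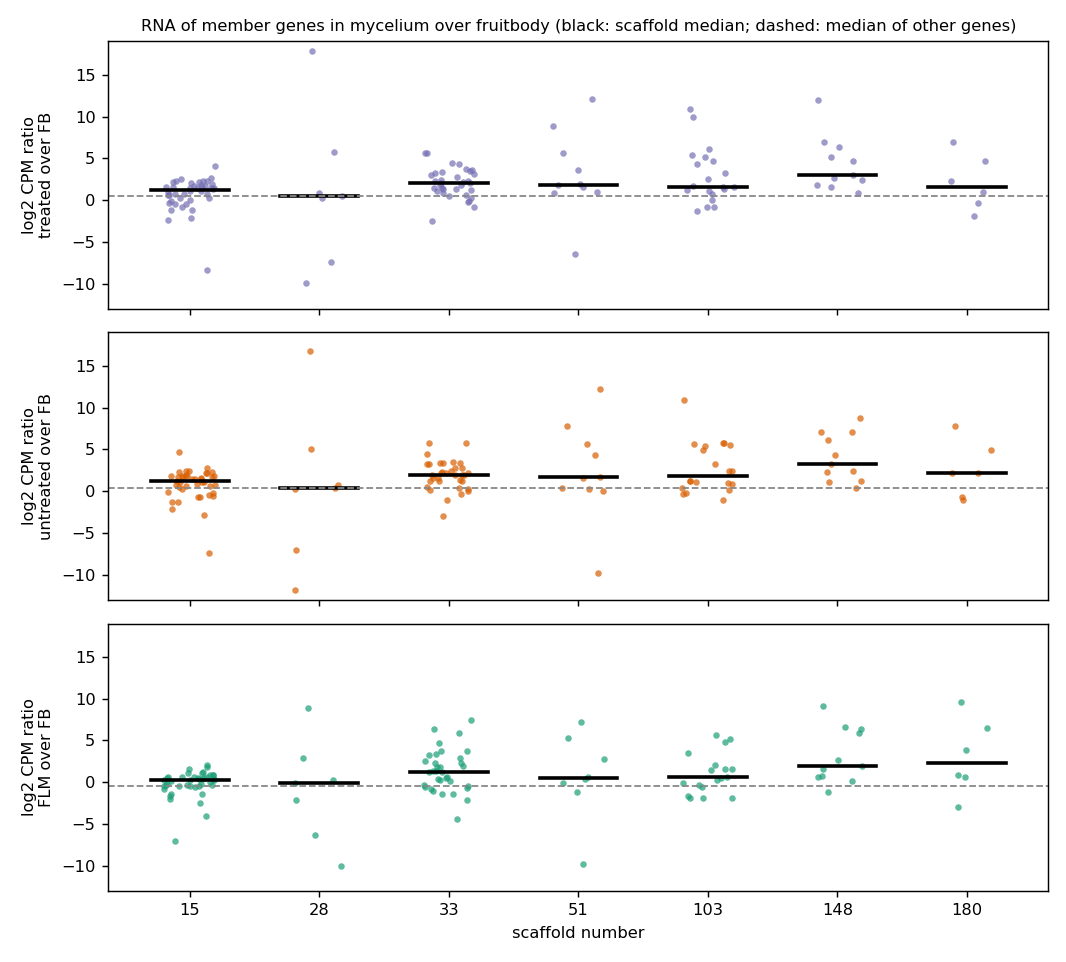
Log2 CPM ratio over FB (y axis) of each gene with at least 20 reads in 1 of the 2 libraries, by scaffold number (x axis), for treated mycelium, untreated mycelium and FLM from top to bottom. The black bar is the scaffold median and the dashed line the median of genes on all other scaffolds; scaffold 148 has the highest bars in the liquid cultures (2.97 and 3.21), where scaffold 28 holds both the highest and the lowest points.

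Some genes had RNA ratios to FB far larger than the depth ratio of their scaffold. GSTUMT00006593001 (scaffold 28, positions 490335 to 491237) had 786963 reads in treated mycelium, 392399 in untreated mycelium, 1732 in FLM and 3 in FB. By reads it ranked 1 among all genes in treated mycelium and 2 in untreated mycelium. It made up 99.7% of the CPM of its scaffold in treated mycelium and 99.4% in untreated mycelium. From 3 FB reads, its ratio to FB in treated mycelium was 281510, with a 95% exact counting interval from 96327 to 1365070 that covers counting error only.

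The sum over scaffold 28 therefore rests on this gene. With it, the sum was 36218 CPM in treated mycelium, 17586 CPM in untreated mycelium, 161 CPM in FLM and 734 CPM in FB. Without it, the sum was 123 CPM in treated mycelium, 105 CPM in untreated mycelium, 88.4 CPM in FLM and 734 CPM in FB, so FB was then the highest.

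GSTUMT00002834001 (scaffold 148, 8130 to 9768) had 16379 reads in treated mycelium, 1898 in untreated mycelium, 2511 in FLM and 4 in FB. Its neighbour GSTUMT00002833001 (6179 to 7834) had 4622, 9243, 13337 and 135 reads in the same libraries, and GSTUMT00002836001 (68698 to 69684) had 14140, 24577, 15534 and 182. On the same scaffold, GSTUMT00002843001 (163081 to 166028) had 8174 reads in treated mycelium, 8746 in untreated mycelium, 4149 in FLM and 68 in FB. All 4 genes were low in FB alone.

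GSTUMT00003627001 (scaffold 180, 25835 to 28700) was highest in FLM, with 116 CPM in treated mycelium, 211 CPM in untreated mycelium, 709 CPM in FLM and 0.898 CPM in FB. GSTUMT00007218001 (scaffold 33, 599300 to 602140) had 219, 248, 368 and 4.49 CPM in the same libraries. GSTUMT00000177001 (scaffold 103, 65698 to 68550) was highest in the liquid cultures, with 639 CPM in treated mycelium, 640 CPM in untreated mycelium, 16.4 CPM in FLM and 0.299 CPM in FB. Low FB levels thus went with different orders among the mycelia.

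On scaffold 51, GSTUMT00009023001 (646978 to 649501) had 2198 reads in treated mycelium, 2405 in untreated mycelium, 75 in FLM and none in FB. Against a floor of 3 reads in the FB library it was at least 786-fold higher in treated mycelium, at least 836-fold higher in untreated mycelium and at least 24.6-fold higher in FLM. On the same scaffold, GSTUMT00009020001 (626599 to 628239) had 225, 108, 4 and 0 reads in treated mycelium, untreated mycelium, FLM and FB, at least 80.5-fold and 37.5-fold higher than FB in the liquid cultures. GSTUMT00009022001 (643565 to 644475), which lies between them, had 112 reads in treated mycelium, 120 in untreated mycelium, 10 in FLM and 2 in FB. The FB bisulfite library covered the genes without FB RNA reads, at 1.48 times its genome mean over GSTUMT00009020001 and 1.47 times over GSTUMT00009023001.

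The gene with most reads on scaffold 103, GSTUMT00000195001 (270415 to 273495), had 859 CPM in treated mycelium, 1143 CPM in untreated mycelium, 835 CPM in FLM and 23.8 CPM in FB. That on scaffold 51, GSTUMT00009012001 (369992 to 372034), had 556 CPM in treated mycelium, 363 CPM in untreated mycelium, 280 CPM in FLM and 293 CPM in FB. The second of these was within 2-fold of FB in all 3 mycelia, unlike the first.

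Of 126 genes with enough reads, 45 were at least 2-fold higher and 8 at least 2-fold lower in all 3 mycelia than in FB. The share over all genes is given here only with size factors from the median of ratios. With these factors 48 of the 126 were higher in all 3 mycelia (38.1%), against 16.5% of all genes. In the same scaling 11 were lower in all 3 (8.73%), against 14.9% of all genes. Some of the 45 genes lay side by side. Such runs were sought on the 7 scaffolds only, so their length has no background from other scaffolds. The longest run, found after the values were seen, holds 8 consecutive genes of scaffold 33, GSTUMT00007236001 to GSTUMT00007245001, over 41.7 kb from 821667 to 863361. The log2 ratios to FB within it ran from 2.02 to 5.62 in treated mycelium, from 1.97 to 5.77 in untreated mycelium and from 1.97 to 7.48 in FLM. Its first gene, GSTUMT00007236001 (821667 to 824564), had 9060 reads in treated mycelium, 10484 in untreated mycelium, 70327 in FLM and 1172 in FB, and GSTUMT00007238001 (829630 to 830346) had 529, 604, 2094 and 11. Among the mycelia, its first 5 genes and its last one were highest in FLM by CPM, and the sixth and seventh, GSTUMT00007243001 and GSTUMT00007244001, were highest in treated mycelium. The gene after the run, GSTUMT00007246001, had log2 ratios to FB of 1.23 in treated mycelium, 1.17 in untreated mycelium and 0.32 in FLM.

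A few genes went the other way, although their DNA depth was higher in mycelium. GSTUMT00004791001 (scaffold 15, 974624 to 975489) had 710 reads in treated mycelium, 1381 in untreated mycelium, 1915 in FLM and 252852 in FB, where it ranked 4 among all genes by reads. It supplied 68.6% of the CPM of scaffold 15 in FB, and its log2 ratio to FB was -8.37 in treated mycelium, -7.46 in untreated mycelium and -7.07 in FLM. The next gene, GSTUMT00004793001 (976928 to 981362), had 4413, 4524, 3857 and 21147 reads in the same libraries. Without GSTUMT00004791001 the scaffold summed to 8549 CPM in treated mycelium, 9052 CPM in untreated mycelium, 5203 CPM in FLM and 4939 CPM in FB, and with it to 8582, 9113, 5284 and 15745 CPM, so FB was highest only with that gene.

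GSTUMT00006579001 (scaffold 28, 279611 to 281437) had 9 reads in treated mycelium, 2 in untreated mycelium, 9 in FLM and 9590 in FB. It was 993-fold lower than FB in treated mycelium and 1085-fold lower in FLM, and its ratio to FB in untreated mycelium was 0.000217 with a counting interval from 2.6e-05 to 0.000785. The gene after it, GSTUMT00006580001 (319730 to 320997), had 31 reads in treated mycelium, 42 in untreated mycelium, 76 in FLM and 5867 in FB. Both thus lay on the scaffold that also carries the gene with most reads in treated mycelium.

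GSTUMT00009016001 (scaffold 51, 522290 to 523803) had 4 reads in treated mycelium, none in untreated mycelium, none in FLM and 437 in FB, and was at least 140-fold lower than FB in untreated mycelium and at least 148-fold lower in FLM. GSTUMT00007204001 (scaffold 33, 469301 to 470284) had 61, 46, 17 and 377 reads in treated mycelium, untreated mycelium, FLM and FB. On scaffold 15, GSTUMT00004785001 (948561 to 950308) had 110, 78, 37 and 603 reads, and GSTUMT00004727001 (22341 to 24637) had 3288, 3060, 1910 and 7761. The last of these was the mildest, with log2 ratios of -1.14, -1.28 and -2.05 in the 3 mycelia.

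**Figure D4:**
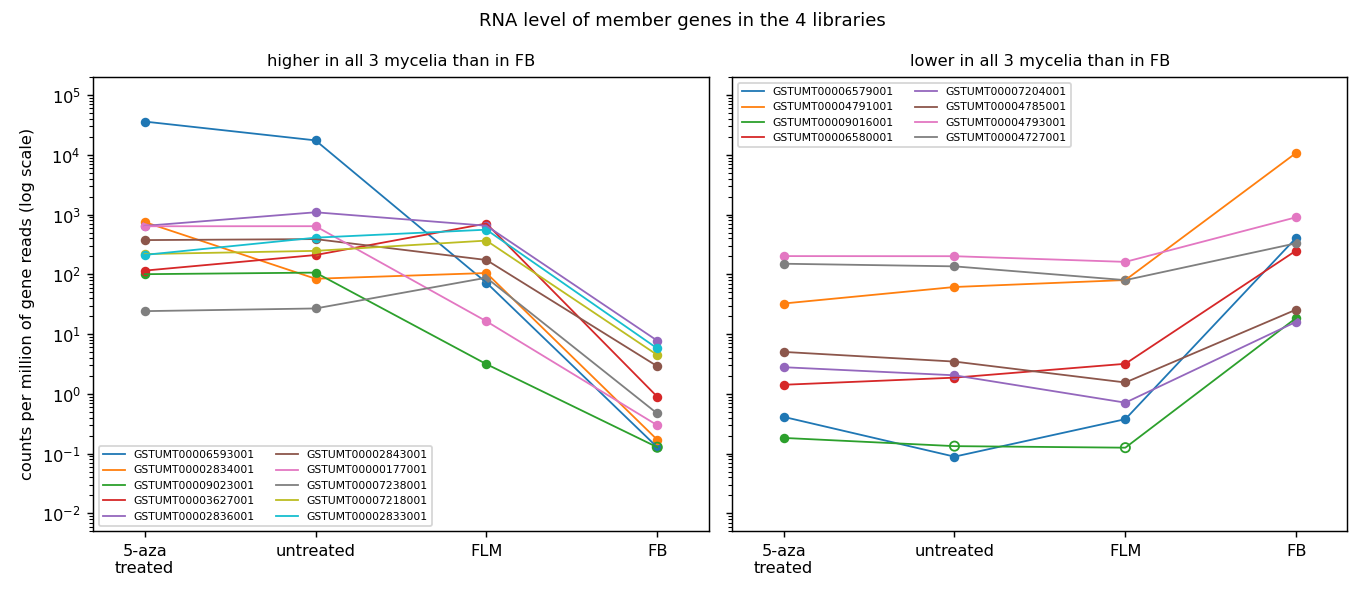
RNA level in CPM of gene reads (y axis, log scale) of 10 genes at least 2-fold higher (left) and 8 genes at least 2-fold lower (right) in all 3 mycelia than in FB, chosen by the size of that difference, with 1 line per gene and the 4 libraries on the x axis. Open circles mark libraries with 0 reads, drawn at the level of 3 reads; GSTUMT00006593001 spans 36095 CPM in treated mycelium to 0.128 CPM in FB, and GSTUMT00004791001 spans 32.6 CPM to 10807 CPM.

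Treated and untreated mycelium differed little over these genes. The median log2 ratio of treated over untreated mycelium was 0.05 over 127 genes, with 0.03 for all genes, and 118 of the 127 were within 2-fold. In treated mycelium 6 genes were at least 2-fold higher, against 4.65% of all genes, and 3 were at least 2-fold lower, against 2.72%. With size factors from the median of ratios, these counts were 5 and 5. None of the 42 genes of scaffold 15 with enough reads differed by 2-fold.

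GSTUMT00000185001 (scaffold 103, 143294 to 144334) had 485 reads in treated mycelium, 27 in untreated mycelium and none in FLM and FB, a ratio of 18.5 between the liquid cultures with a counting interval from 12.6 to 28.4. GSTUMT00002834001, described above, was 8.88 times as high in treated as in untreated mycelium (8.47 to 9.32). GSTUMT00009011001 (scaffold 51, 367202 to 369184) had 3719 reads in treated mycelium, 1049 in untreated mycelium, 1735 in FLM and 1071 in FB. Untreated mycelium was thus near FB for this gene, and treated mycelium above all the others.

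The 3 genes lower in treated mycelium were GSTUMT00000180001 (scaffold 103, 83915 to 85715), with 199 reads against 505 in untreated mycelium, GSTUMT00003639001 (scaffold 180, 146124 to 148344), with 163 against 400, and GSTUMT00007200001 (scaffold 33, 460697 to 461630), with 3102 against 6789. Their log2 ratios of treated over untreated mycelium were -1.30, -1.25 and -1.09. All 3 had more CPM in treated mycelium than in FB.

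Untreated mycelium and FLM are both Mel28 but grew in liquid and on agar. The depth of the 7 scaffolds was alike in both, and of 128 genes 67 were at least 2-fold higher in untreated mycelium, against 43.5% of all genes, and 14 at least 2-fold lower, against 10.7%. The median log2 ratio was 1.10, with 0.82 for all genes. With size factors from the median of ratios the median was 0.26, with -0.02 for all genes, and 27 genes were higher and 25 lower, against 18.8% and 21.7% of all genes. The split between higher and lower genes thus depended on the scaling. The difference from all genes, 0.28, cannot depend on it, since scaling moves all genes almost equally.

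Single genes separated the 2 cultures more. GSTUMT00000177001 had a log2 ratio of untreated mycelium over FLM of 5.28 and GSTUMT00006593001 of 7.91, while GSTUMT00000185001, with 27 reads against none, was at least 9.55-fold higher in untreated mycelium. In the other direction, GSTUMT00003636001 (scaffold 180, 130853 to 131760) had 12 reads in untreated mycelium against 382 in FLM, with 6 in treated mycelium and 26 in FB. GSTUMT00007236001 and GSTUMT00007213001 (scaffold 33, 512792 to 514733) had log2 ratios of -2.66 and -1.90. Scaffold 180 was divided, with 3 of its 6 genes higher and 3 lower in untreated mycelium than in FLM.

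Methylation within the genes was low in all libraries. The mean CG level of a gene body, over cytosines with at least 4 reads (1 in ECM), had a median over the 133 genes of 0.37% in treated mycelium, 0.38% in untreated mycelium, 0.27% in FLM, 0.36% in ECM and 0.50% in FB. Other genes had 0.31%, 0.33%, 0.27%, 0% and 0.49% in the same libraries. The sources used here give no bisulfite conversion rate, so levels this low cannot be told from incomplete conversion or read errors. Their small differences between libraries are therefore not read as differences in methylation. In ECM the lower quartile was 0% in both groups. None of the 133 genes was above 10% in any library, and between 0.56% and 0.62% of other genes were. With so low a share elsewhere, finding none among 133 genes does not set them apart.

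The highest gene-body level outside ECM belonged to GSTUMT00004785001, which had 4.05% in treated mycelium, 4.13% in untreated mycelium, 3.74% in FLM and 0.51% in FB. It was named above as a gene lower in all 3 mycelia than in FB. Whether its methylation has a part in that difference was not tested.

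Repeats with a class, 1193 on the 7 scaffolds, differed from scaffold to scaffold in methylation. Their median CG level was 83.3% in treated mycelium, 83.1% in untreated mycelium, 80.6% in FLM, 75% in ECM and 78.3% in FB, against 87.3%, 87.2%, 83.8%, 78.6% and 83.2% on all other scaffolds. Scaffold 33 was lower, with 73.2% in treated mycelium, 70.7% in untreated mycelium, 71.7% in FLM, 29.0% in ECM and 59.0% in FB. Scaffold 51 was also lower, with 69.5%, 70.0%, 68.8%, 61.4% and 71.0% in the same libraries. Scaffold 148 was above the other scaffolds of the genome in each library, with 89.1%, 88.8%, 85.9%, 85.7% and 87.0%. Scaffold 15 was above them in the mycelia, with 88.9% in treated mycelium, 89.0% in untreated mycelium and 86.1% in FLM, and had 78.0% in ECM and 81.8% in FB.

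RNA reads on the 2101 repeats of the 7 scaffolds numbered 64721 in treated mycelium, 70341 in untreated mycelium, 49969 in FLM and 31303 in FB. Scaled to CPM of gene reads this was 2969 in treated mycelium, 3134 in untreated mycelium, 2098 in FLM and 1338 in FB. On all other scaffolds the sum was highest in FB, with 33447 in treated mycelium, 44853 in untreated mycelium, 31626 in FLM and 266198 in FB. The repeats with a read there numbered 5897, 6069, 4190 and 4837 in the same order, so FB had fewer of them than the liquid cultures. These sums include repeats without a class, and how the reads spread over single repeats is not given here. Of the 133 located genes, 8 overlap a repeat (6.02%, against 4.31% of other genes), and without these 8 the median log2 ratio to FB was 1.56 in treated mycelium, 1.58 in untreated mycelium and 0.48 in FLM.

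The rank correlation of read counts over all genes was 0.967 between treated and untreated mycelium, 0.830 between untreated mycelium and FLM, and between 0.641 and 0.676 for FB with the mycelia. The column labelled FLM was thus nearer to the liquid cultures than the column labelled FB, which bears on the labels of these columns because the read totals behind the deposited RPKM of FB and FLM stand in the opposite order in the study's own account of its libraries. Of the 134 genes, 132 had a read in treated mycelium, 130 in untreated mycelium, 129 in FLM and 129 in FB. GSTUMT00003630001 (scaffold 180, 49149 to 51860) had none in any library, as did GSTUMT00004744001, and a count of 0 still allows 3 reads, or 0.138 CPM in treated mycelium, 0.134 CPM in untreated mycelium, 0.126 CPM in FLM and 0.128 CPM in FB.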

How the data were processed

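Per the methods, the authors used BS Seeker (version not given in the sources used here) to align bisulfite reads to assembly v1.0, and deposited, per cytosine with a read, counts of methylated and of all reads. For RNA, 50-nt single-end reads were aligned with TopHat2 2.0.4, and the deposited counts are HTSeq 0.5.4p3 counts of unique alignments. Whether counting used strand is not stated, so overlapping genes cannot be told apart. The authors also deposited RPKM values, computed with 1 total per library, which served here only to recover those totals. The totals recovered for FB and FLM are those that the study gives for FLM and FB, so one of the sources has the names exchanged. The column labels were kept, and an exchange of these RNA columns would turn every RNA ratio of FLM to FB round and put FLM in the place of FB in the others. Deposited columns of the authors' comparisons (log ratios, p-values) were not used.

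Cytosine positions start at 0 in the ECM, FLM and FB calls and were shifted by 1, after which 94.8% of FB bases matched those of the treated library (24.6% without). Gene positions came from RefSeq (assembly ASM15164v1) for 133 of the 134 genes. They were checked against the cytosine calls without use of strand. A start codon pattern stood at either end of the span in 42.5% of genes, against at most 10.9% at the other shifts tried. The depth of a scaffold is the mean of reads over cytosines listed in that library, divided by the genome mean. For windows and gene spans, reads were divided by all cytosines listed in any library, and then by the genome mean taken the same way. Gene bodies needed at least 4 CG cytosines.

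CPM, log2 ratios and exact binomial counting intervals (95%) were computed in Python 3.11.15 with pandas 2.3.3, scipy 1.17.1 and numpy 2.4.6, and tested on simulated data. No test between conditions was possible with 1 library each. Floors and intervals cover counting error only. The genes and the rules were chosen with earlier results of these data known. Named genes were, by rule, the gene with most reads per scaffold, up to 10 with the largest and smallest smallest-of-3 ratio to FB among those past 2-fold in all 3 mycelia, the 3 largest and 3 smallest ratios of treated over untreated mycelium and of untreated mycelium over FLM, and genes with 0 reads in a library. Alternatives were other scalings, filters and pseudocounts, and leaving out scaffold 15 or genes overlapping repeats.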

Additional observations from a re-analysis of the deposited data

How the results depend on the processing

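All medians and depth ratios kept their direction, except that the median of treated over untreated mycelium, near 0 throughout, had either sign. With size factors from the median of ratios, the median log2 ratio of the genes on the 7 scaffolds was 0.93 for FLM over FB, 1.08 for treated mycelium over FB and 0.26 for untreated mycelium over FLM. With these factors 5 genes were at least 2-fold lower in treated than in untreated mycelium, and 27 were higher and 25 lower in untreated mycelium than in FLM. Without scaffold 15 the median was 1.96 for treated mycelium over FB, 2.06 for untreated mycelium over FB and 1.02 for FLM over FB, with 6 and 7 genes lower in treated and in untreated mycelium, since 42 of the tested genes lie there. With the median over scaffolds of at least 100 kb as the genome level, the 7 scaffolds had 1.70 times the FB depth in FLM. Other filters (1 or 100 reads), a pseudocount of 2 reads, totals from RPKM and leaving out genes that overlap repeats changed no count by over 1.5 times and left each median within the 95% interval of its order statistics, as did other read minimums for the gene-body CG level. For the 7 scaffolds together, the depth over all cytosines listed in any library, chosen after seeing the data, gave like ratios. The depths of windows and gene spans use that measure throughout. No paired analysis was possible because each condition has 1 library, so no library could be left out either. ECM, at 1.35 reads per cytosine, limits what its single genes show.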
